A study of Saccharomyces cerevisiae with 94 samples.

Results

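The genes described here encode the proteasome of the budding yeast Saccharomyces cerevisiae and its transcription factor. They comprise 29 subunit genes and RPN4 (YDL020C), chosen by name as 30 rows of a table of 6444 genes, and all 30 were present in it. By role they are 7 genes of the 20S alpha ring, 6 of the 20S beta ring, 6 RPT genes for the ATPases of the 19S cap, 10 RPN genes for its other subunits, and RPN4. Another 4 subunit genes, PRE3, RPN11, RPN13 and SEM1, were not among the chosen rows and are given beside them.

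Transcript abundance was measured by RNA-seq in synchronised cultures to ask how early replication of the whole genome affects gene expression within one cell cycle. Both strains were MATa cells of the W303 background and shared the alleles ade2-1, ura3-1, trp1-1, can1-100 and rad5-535, along with his3-11, 15 and leu2-3, 112. The strain sml1Δ SSDDCS (SSDDCS below) had SML1 replaced (sml1_delta::HphNT) and carried 3 integrated constructs. These were Sld7-PGAL1-10-Cdc45 at leu2, marked with LEU2, then SLD3-A-PGAL1-10-Dbf4-A at his3, marked with HIS3, and Sld2-PGAL1-10-Dpb11 at trp1, marked with TRP1. Their galactose-inducible promoter drives 6 factors needed to start DNA replication. The control strain, sml1Δ, carried sml1_delta::URA3. SML1, which encodes an inhibitor of ribonucleotide reductase, was thus deleted in both strains, and both received galactose, so neither stands for wild type yeast in glucose. Cells were grown in raffinose medium, held in G1 with the pheromone alpha factor and given galactose during the arrest. They were then released into galactose medium and sampled in G1 and at 5, 10, 15, 20, 25, 30, 35, 40, 45, 50 and 60 min. Each strain had 4 biological replicates per time point, except 3 at 25 min, which gave 94 libraries.

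The proteasome degrades proteins tagged with ubiquitin. Its 20S core is a barrel in which outer alpha rings gate the entrance and inner beta rings hold the proteolytic sites, and its 19S cap recognises, unfolds and feeds in the substrate. In yeast the subunit genes are activated together by Rpn4, which binds a short promoter element known as PACE (proteasome-associated control element). Rpn4 is itself degraded rapidly by the proteasome, and transcription of RPN4 responds to the stress factors Yap1, Pdr1, Pdr3 and Hsf1, so the pair forms a feedback loop.

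The letters GGTGGCAAA of PACE were searched for on both strands of the 300 bases before each start codon in the R64 assembly of RefSeq, the build of the deposited values. They occurred before 25 of the 30 genes, all of them subunit genes, and before 73 of 6002 protein-coding genes in all (1.22%). These matches lay 75 to 174 bases from the start codon, with a median of 111, and 17 of the 25 read in the direction of the gene. The shorter letters TGGCAAA, which lie within PACE, occurred before 28 of the 30 genes and before 7.16% of all genes. PRE5, PUP1 and RPN8 held the shorter form but not the longer one, and RPN10 and RPN4 held neither. A match describes letters in a window and says nothing of whether Rpn4 was bound. The windows below belong to PRE9, which was called lower in SSDDCS, to RPN6, which had the lowest difference of the 30 at 25 min, and to genes with the highest or lowest difference of their class at 30 min. Capitals mark the full PACE.
RPN6 (chrIV:286790-286818, minus strand): tggttccaagGGTGGCAAAtgttggtaga
RPT4 (chrXV:813802-813830, plus strand): ctttcccttcGGTGGCAAAttccactatt
PRE9 (chrVII:761223-761251, plus strand): ttaccctgcaGGTGGCAAAaaatttatag
PRE2 (chrXVI:732184-732212, plus strand): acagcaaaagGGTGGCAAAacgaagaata
PRE7 (chrII:141150-141178, plus strand): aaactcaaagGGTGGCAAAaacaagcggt
PUP2 (chrVII:999226-999254, minus strand): aaccaagaccGGTGGCAAAagagtaacct
RPN12 (chrVI:252398-252426, minus strand): aatttcaatgGGTGGCAAAtaatgtgtag

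In the genes with the shorter form only, capitals mark TGGCAAA, and the 2 bases before it are not the GG of PACE.
RPN8 (chrXV:817085-817111, minus strand): gatacctcagTGGCAAAtcgttactca
PRE5 (chrXIII:901554-901580, plus strand): tattatagagTGGCAAAattaaaaatt
PUP1 (chrXV:631891-631917, minus strand): cccggccgagTGGCAAAataccaaaaa

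The RPN4 promoter was searched over 600 bases for the letters of its own regulators, since its transcript had the highest strain difference of the 30 at most time points. The Pdr1/Pdr3 letters TCCGTGGA occurred at 2 places before RPN4 and before 1.3% of all genes, whereas the related TCCGCGGA was not found in that window. The Yap1 letters TTAGTAA occurred once before RPN4 and before 13.7% of all genes. A heat shock element, to which Hsf1 binds, was searched for as TTC, GAA and TTC with 2 bases of any kind between the triplets, and occurred before RPN4 and before 1.7% of all genes. Of its matches the one farther from the start codon is shown. Capitals mark the matched letters.
RPN4, Pdr1/Pdr3 letters (chrIV:417133-417160, minus strand): aataacaagtTCCGTGGAactcaaagaa
RPN4, Pdr1/Pdr3 letters (chrIV:417090-417117, plus strand): cacgtgattaTCCGTGGAaaggttcgta
RPN4, Yap1 letters (chrIV:417066-417092, plus strand): taaacggctaTTAGTAAtagcgatcac
RPN4, heat shock element (chrIV:417038-417062, minus strand): tgatgGTTCTAGAAAGTTCCgtttc

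The strain and cell labels were checked against marker genes over the same libraries. Libraries held 8119387 to 21677438 reads in genes. Replicate 1 was the deepest in both strains, with a median of 15435433 reads in SSDDCS and 20480360 in sml1Δ. All 6 over-expressed factors were higher in SSDDCS at all 12 time points, with no overlap between the strains. At 30 min 17% of all genes were called higher in SSDDCS. Then 5 of 7 stress genes were called higher in SSDDCS, where their summed level ran from 23849 to 32704, against 8195 to 12332 in sml1Δ. At the same time 5 of 6 pheromone-response genes and 3 of 3 alpha-specific genes were also called higher in SSDDCS, although the summed level of the alpha-specific genes was low in SSDDCS, at 253 to 365, and in sml1Δ, at 81.1 to 92.3. Of 5 a-specific genes, which mark MATa cells, 2 were called higher at 30 min. In G1 their summed level ran from 54701.6 to 70340.8 in SSDDCS and from 56366.5 to 72332.3 in sml1Δ. The summed level of 8 histone genes, a sign of S phase, ran from 88428 to 120655 in SSDDCS and from 126609 to 193175 in sml1Δ at 30 min, without overlap, with a median difference of -0.62 on the log2 scale. Of these 8 genes, 0 were called at 30 min (background 31.3%). Of 8 G1/S genes 1 was called lower at 30 min, and of 8 G2/M genes 2 were (background 14.3%), with 0 called higher in both lists. In G1, before release, the summed level of the 7 stress genes already lay apart. It ran from 20084 to 27847 in SSDDCS and from 14180 to 15746 in sml1Δ. Of these genes, 1 was called in G1, higher in SSDDCS (background 0.655%). The part of these differences in the proteasome results was not tested.

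Levels are given as normalised reads, which are read counts scaled by a size factor for each library. Subunit transcripts were abundant and similar in level. Per kb of coding length, the mean over the 94 libraries ran from 1088 normalised reads for RPN1 to 2673 for PRE7 among the 29 subunits, with a median of 1928, against a median of 474 over all annotated genes. Core genes had higher medians per kb, at 2231 for the alpha ring and 2263 for the beta ring, against 1627 for the RPT genes and 1427 for the RPN genes. The ranges overlapped, since the lowest alpha and beta genes had 1910 and 1928 and the highest RPT and RPN genes 2014 and 1949. The part of gene length in these levels was not tested. RPN4 stood at 1181 normalised reads per kb, within the range of the subunits and near its lower end.

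The subunit genes held a small share of the transcriptome, which followed a similar course in both strains. Their summed share of normalised reads was 0.525 ± 0.0248% in SSDDCS and 0.516 ± 0.02% in sml1Δ in G1 (SD, n = 4 each). It was highest at 15 min, at 0.58 ± 0.0275% in SSDDCS and 0.584 ± 0.0271% in sml1Δ. The share was lowest at 40 min, at 0.438 ± 0.0203% in SSDDCS and 0.431 ± 0.0321% in sml1Δ. By 60 min the share had risen again to 0.515 ± 0.0344% in SSDDCS and 0.482 ± 0.0237% in sml1Δ, with both means below those in G1. The libraries of the strains overlapped at all 12 time points.

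**Figure D1:**
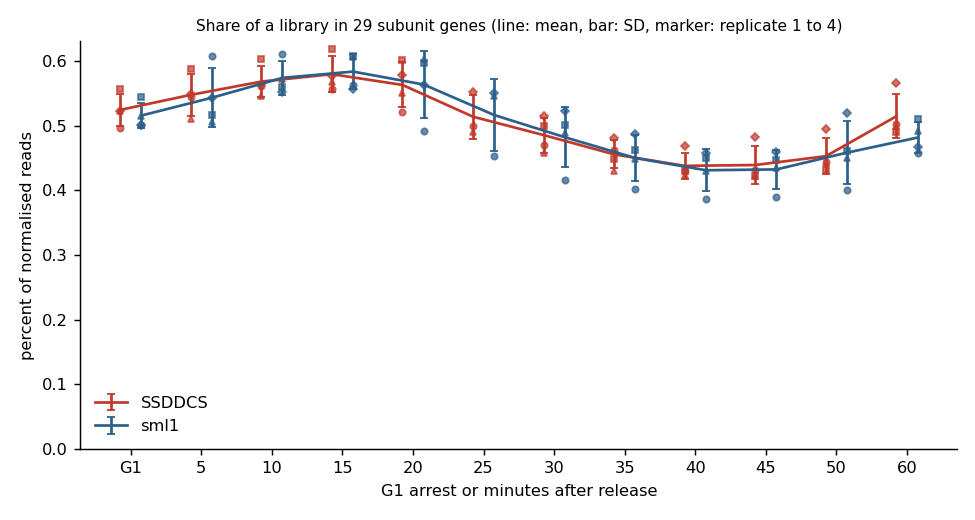
Share of normalised reads (percent of a library) in the 29 subunit genes, by time, for SSDDCS (red, left of each pair) and sml1Δ (blue, right). Markers are libraries of replicates 1 to 4, lines join means and bars are SD. Both strains reach their highest mean at 15 min, at 0.58% in SSDDCS and 0.584% in sml1Δ, and their lowest at 40 min, and the libraries of the strains overlap.

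Gene by gene, the transcripts followed a shallow wave through the cycle. The time course was called for 26 of the 30 genes in SSDDCS and for 25 in sml1Δ (limma F-test over time, Benjamini-Hochberg adjusted p under 0.01), against backgrounds of 86.8% and 83.5% of all 6414 genes tested, so a change over time was common to most genes. Genes without a call were RPN2, RPN5, RPN9 and RPN12 in SSDDCS, and PRE7, RPN2, RPN3, RPN5 and RPN9 in sml1Δ. The span between the highest and lowest time point had a median of 0.42 in SSDDCS and 0.37 in sml1Δ on the log2 scale over the 30 genes, against 0.87 and 0.82 over all genes. It was the widest for RPN4, at 0.72 in SSDDCS and 0.87 in sml1Δ, and the narrowest for RPN12 in SSDDCS, at 0.24, and for RPN3 in sml1Δ, at 0.17. The span was larger in SSDDCS for 23 of the 30 genes, a description for which no test was run.

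The timing of the wave was similar in both strains in its crest and trough windows. The mean was highest at 5 to 15 min for 25 of 29 subunits in SSDDCS and for 24 in sml1Δ, and lowest at 35 to 50 min for 23 in SSDDCS and 25 in sml1Δ. Within the early window, 11 subunits had their highest mean at 5 min in SSDDCS, against 1 in sml1Δ, and 5 had it at 15 min in SSDDCS, against 14 in sml1Δ. The means of neighbouring time points lie close together, and the difference in crest time was not tested. RPN4 had its highest mean at 10 min and its lowest at 35 min in both strains.

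Set against G1, few genes were called early and more were called at 40 and 45 min. At 10 min, 3 genes were called higher than in G1 in SSDDCS (background 26.1%) and 5 in sml1Δ (background 24.1%). At 40 min, 17 of the 30 genes were called lower than in G1 in SSDDCS (background 25.9%) and 8 in sml1Δ (background 24.3%). At 45 min the counts of lower genes were 20 in SSDDCS (background 23.6%) and 6 in sml1Δ (background 21.1%), with median changes over the 30 genes of -0.26 in SSDDCS and -0.18 in sml1Δ. At 60 min, 1 gene was still called lower in SSDDCS (background 14.6%). These contrasts share the G1 libraries of their strain. A larger count in SSDDCS is not a test of the difference between strains, and that test, the strain-by-time F-test, called 1 of the 30 genes (background 22.3%), RPN10.

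Members of the family moved together. Between pairs of subunit genes, the median Pearson correlation of group means over 12 time points was 0.78 in SSDDCS and 0.82 in sml1Δ, whereas it was near 0 for pairs of all genes. Deviations of single libraries from their group mean were also shared, with a median correlation of 0.74 over 94 libraries, against 0.0055 for pairs of all genes. For the strain differences themselves the median correlation was 0.28 over 12 time points. These points share libraries and depth and are given without a test.

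Replicate 1 of sml1Δ held the largest library deviation. From 20 to 50 min its subunit transcripts stood on average -0.18 to -0.13 from their group mean on the log2 scale, with at most 1 of 29 subunits above that mean in any library. At 5 min the same replicate stood 0.23 above, with 29 of 29 subunits above their mean. The 82 libraries of the other replicates ranged from -0.12 to 0.2. The highest of them was sml1Δ replicate 4 at 50 min. That replicate had 29 of 29 subunits above their mean at 30, 35, 40 and 50 min. A group mean includes every replicate, so a low replicate raises the deviations of the others. Replicate 1 is also the most deeply sequenced, and the part of depth in its deviation was not tested. Where a strain call of the 30 genes depends on it, the result without it is given below.

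The main comparison asked whether over-expression of the replication factors altered proteasome transcripts at matched times after release. At 30 min, when 31.3% of all genes were called, 2 of the 30 genes were called, RPN8 and RPN10, both lower in SSDDCS (14.3% of all genes were called lower, limma on log2 of normalised reads plus 1, adjusted p under 0.01). The median difference over the 30 genes was -0.02, against -0.04 over all genes, and it was 0.03 with equal library totals and 0.04 with quantile normalization. Without sml1Δ replicate 1 it was -0.07. The median size of a difference without regard to sign was 0.1 for the 30 genes and 0.27 for all genes. The 95% intervals of the 30 differences lay between -0.43 and 0.43 on the log2 scale. Leaving out 1 replicate at a time changed the count of 2 to between 0 (without SSDDCS replicate 3) and 6 (without sml1Δ replicate 1), and edgeR on the recovered reads called 1 gene.

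Across the time course, calls were few and fell between 20 and 40 min. With limma, 0 of the 30 genes were called in G1 (background 0.655%) and after 5 min (0.421%), 10 min (0.343%) or 15 min (2.85%) of release. An unadjusted p under 0.05 was reached there by 1 gene in G1 and by 0 genes at the other times, and edgeR and DESeq2 also called 0. RPN4 was the only gene called at 20 min (background 18.1%, or 10.2% higher) and at 25 min (21.6%, or 12.6% higher). At 35 min the count was 3 (27.5%, or 12.9% lower), and at 40 min it was 1 (19.8%, or 9.12% lower). With limma it was 0 at 45 min (13.5%), 50 min (9.2%) and 60 min (5.35%), where 3, 3 and 1 genes had an unadjusted p under 0.05 and edgeR and DESeq2 called 0. In all, 5 of the 30 genes were called at 1 or more time points, against 43.4% of all genes. Leaving out 1 replicate moved that count of 5 to between 1 (without sml1Δ replicate 3 or SSDDCS replicate 1) and 8 (without sml1Δ replicate 1).

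**Figure D2:**
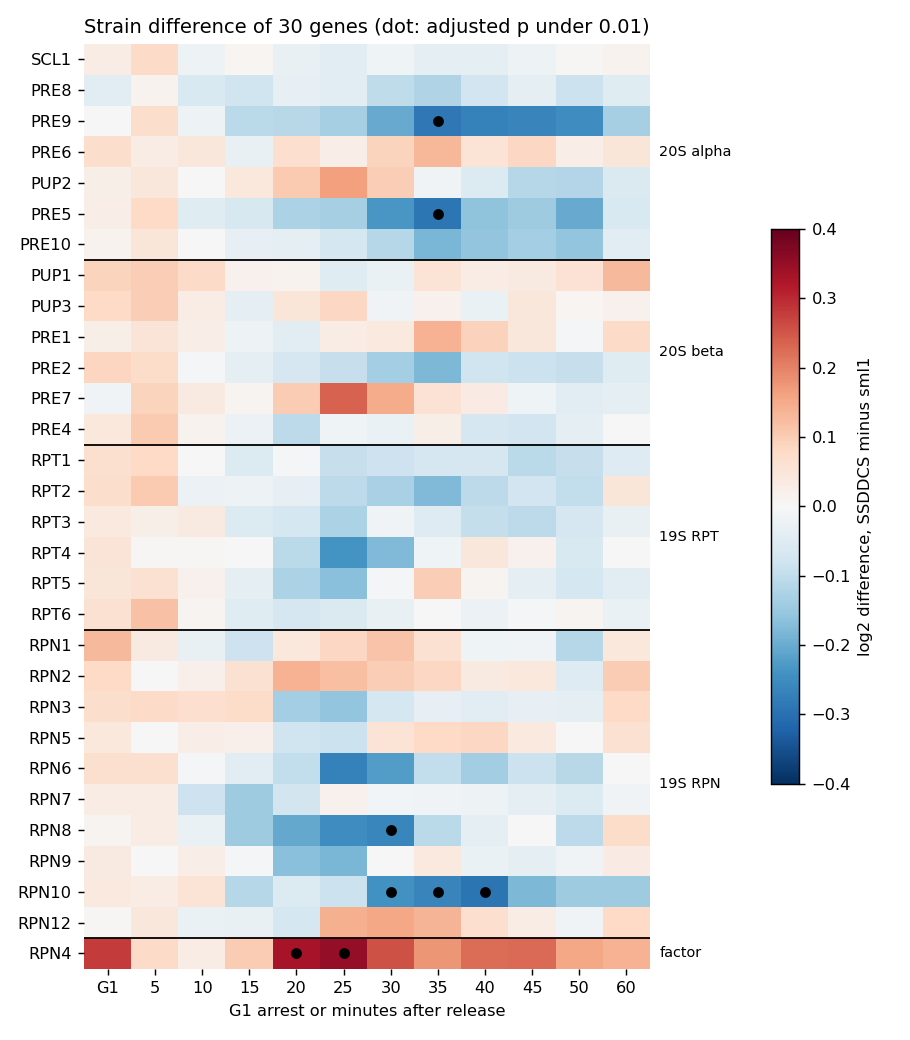
Strain difference (log2, SSDDCS minus sml1Δ, colour) of the 30 genes in rows by role, over G1 and 11 times after release in columns. Black dots mark the 8 called differences (adjusted p under 0.01). RPN4 is positive at all 12 time points, and the called subunits RPN8, RPN10, PRE5 and PRE9 are negative at 30 to 40 min.

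RPN4, on chromosome IV (chrIV:415113-416708, minus strand), had the highest of the 30 differences at 10 of the 12 time points. In G1 it had 2122, 2241, 2045 and 2035 normalised reads in SSDDCS, against 1674, 1846, 1749 and 1690 in sml1Δ. The libraries did not overlap (as for 3.29% of all genes in G1), but the difference of 0.28 did not pass the test over all genes (SE 0.09, limma adjusted p 0.158). At 10 min, its highest level, it had 2669, 3090, 2633 and 2388 in SSDDCS, against 2526, 2771, 2791 and 2444 in sml1Δ, and the strains overlapped.

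At 20 and 25 min RPN4 was called higher in SSDDCS. At 20 min it had 2100, 1998, 1851 and 2121 normalised reads in SSDDCS, against 1340, 1620, 1576 and 1924 in sml1Δ, differing by 0.33 (limma, SE 0.09, adjusted p 0.00344). The strains overlapped at 20 min through sml1Δ replicate 4. At 25 min replicates 1, 3 and 4 had 1982, 1932 and 1930 in SSDDCS, against 1335, 1512 and 1756 in sml1Δ, differing by 0.35 (limma, SE 0.1, adjusted p 0.0061). The SSDDCS libraries at 25 min lay close together and above all of sml1Δ, while the sml1Δ libraries were spread, with replicate 1 the lowest. The strains did not overlap at 25 min, in either direction, for 43.1% of all genes. At 30 min RPN4 had 1757, 1778, 1680 and 1700 in SSDDCS, against 1232, 1475, 1366 and 1778 in sml1Δ, a difference of 0.25 that did not pass (SE 0.09, limma adjusted p 0.0184). The RPN4 difference was already 0.28 in G1, and the strain-by-time F-test did not call RPN4 (limma adjusted p 0.546).

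After 30 min the RPN4 difference remained positive at 0.14 to 0.23 and was not called again with all libraries as deposited. It was called at 40 and 45 min with quantile normalization and at 45 min without sml1Δ replicate 4. At 40 min the libraries did not overlap (as for 27.3% of genes), with 1856, 1735, 1699 and 1777 in SSDDCS, against 1396, 1604, 1440 and 1618 in sml1Δ (limma adjusted p 0.0501). At 60 min it had 1745, 1935, 1883 and 1888 in SSDDCS, against 1534, 1778, 1802 and 1661 in sml1Δ. Without sml1Δ replicate 1 the difference was 0.24 at 20 min (limma adjusted p 0.0295) and 0.26 at 25 min (0.055), so neither call was kept. The call at 20 min was also lost without sml1Δ replicate 2 or 3 or SSDDCS replicate 1, 2 or 4, and that at 25 min without sml1Δ replicate 3 or SSDDCS replicate 1, 3 or 4. At 30 min the difference was 0.35 and was called without sml1Δ replicate 4 (limma adjusted p 0.000284).

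**Figure D3:**
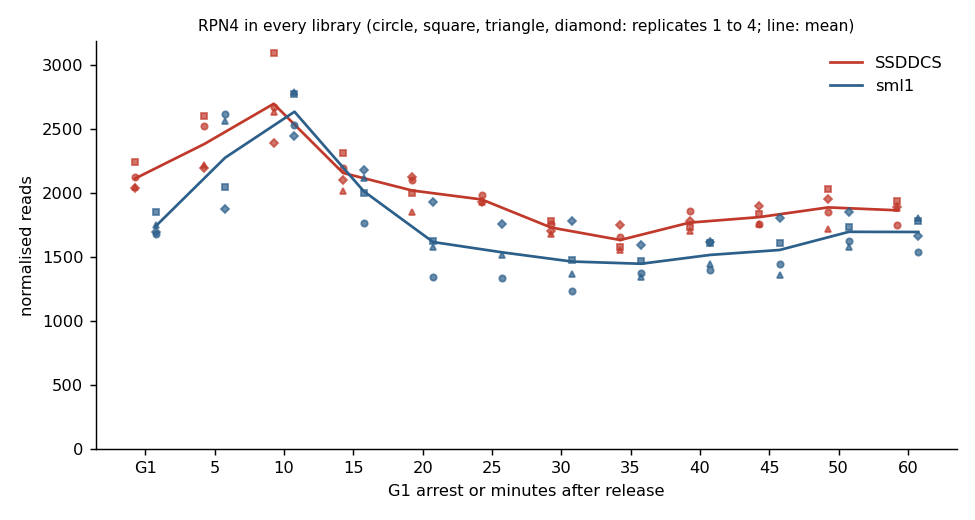
RPN4 in every library (normalised reads, axis starting at 0) over G1 and 11 times after release, SSDDCS in red to the left of sml1Δ in blue. Markers are replicates 1 to 4 and lines join means, with time points drawn evenly spaced. In both strains the mean is highest at 10 min, and at 25 min the 3 SSDDCS libraries lie between 1930 and 1982, above those of sml1Δ.

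Of the regulators of RPN4, 1 transcript of a list of 7 was called at 30 min (background 31.3%, or 14.3% lower), PDR1, which encodes an activator of drug-resistance genes and of RPN4. PDR1 was lower in SSDDCS, at 675 ± 47.7 normalised reads against 969 ± 87.1 in sml1Δ (SD over 4 libraries), differing by -0.52 (limma, SE 0.09, adjusted p 2.11e-06). At 30 min PDR3, HSF1 and YAP1 had differences of 0.26, 0.18 and -0.09, and UBR2, MUB1 and RAD6, which encode the ubiquitin ligase machinery that marks Rpn4 for degradation, had -0.14, -0.12 and -0.22. None of these 6 passed the test at 30 min.

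In the 20S alpha ring, whose subunits form the gate of the core, limma called 0 of 7 genes at 30 min and 2 at 35 min, PRE5 (YMR314W) and PRE9 (YGR135W), both lower in SSDDCS (backgrounds of 31.3% at 30 min and, for lower genes, 12.9% at 35 min). At 30 min 2 had an unadjusted p under 0.05, and edgeR and DESeq2 called 0. The highest difference at 30 min was that of PUP2, at 0.1 (SE 0.08, limma adjusted p 0.306). It had 2173, 2278, 2053 and 2352 normalised reads in SSDDCS, against 1963, 2077, 1976 and 2252 in sml1Δ, and the libraries overlapped. The lowest was that of PRE5, at -0.23 (SE 0.09, limma adjusted p 0.0211), with 1391, 1493, 1349 and 1510 in SSDDCS, against 1535, 1696, 1600 and 1945 in sml1Δ. All SSDDCS libraries of PRE5 lay below all of sml1Δ at 30 min. The strains did not overlap, in either direction, for 36.9% of all genes.

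PRE5 and PRE9 reached their largest gaps at 35 min. PRE5 had 1330, 1319, 1265 and 1302 normalised reads in SSDDCS, against 1447, 1586, 1617 and 1742 in sml1Δ, differing by -0.29 (limma, SE 0.09, adjusted p 0.00454). The strains did not overlap, as for 34.4% of genes at that time. PRE9, the alpha subunit that yeast can live without, had 1218, 1328, 1133 and 1298 in SSDDCS, against 1309, 1590, 1426 and 1763 in sml1Δ, differing by -0.28 (limma, SE 0.09, adjusted p 0.00835), and 1 pair of libraries overlapped. The PRE9 difference stayed between -0.27 and -0.25 from 40 to 50 min without a call. PRE9 was called at 30, 40, 45 and 50 min without sml1Δ replicate 1, and so was PRE5 at 30 min. The remaining alpha genes SCL1, PRE8, PRE6 and PRE10 had differences at 30 min of -0.02, -0.1, 0.09 and -0.11.

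Both calls at 35 min depended on the libraries and on the scaling. PRE5 was lost without sml1Δ replicate 2, 3 or 4 or SSDDCS replicate 1 or 3, with limma adjusted p between 0.0123 and 0.0228. PRE9 was lost without sml1Δ replicate 2, 3 or 4 or SSDDCS replicate 1, 3 or 4, with limma adjusted p between 0.0114 and 0.0597. With equal library totals the differences were -0.24 for both genes, with limma adjusted p of 0.0145 for PRE5 and 0.0316 for PRE9. Both were also lost with quantile normalization and with a correlation within cultures. Both were called by edgeR and DESeq2 on the recovered reads.

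In the 20S beta ring, which holds the catalytic sites, limma called 0 of 6 genes at every time point, and at 30 min 0 had an unadjusted p under 0.05. edgeR and DESeq2 also called 0. PRE7 (YBL041W) was called at 25 min with equal library totals, and PRE2 at 35 min without sml1Δ replicate 1. PRE7 had the highest difference at 30 min, at 0.15 (SE 0.07, limma adjusted p 0.102), with 2068, 2017, 2032 and 2223 normalised reads in SSDDCS, against 1787, 1838, 1782 and 2137 in sml1Δ. Of the sml1Δ libraries, replicate 4 alone reached the level of SSDDCS. At 25 min the PRE7 difference was 0.24 (SE 0.09, limma adjusted p 0.0279), and the libraries did not overlap, as for 43.1% of genes. The lowest at 30 min was PRE2, the chymotrypsin-like catalytic subunit, at -0.13 (SE 0.09, limma adjusted p 0.222), with 1686, 1907, 1475 and 1743 in SSDDCS, against 1561, 1902, 1927 and 2099 in sml1Δ, which overlapped. PUP1, the trypsin-like subunit, PUP3, PRE1 and PRE4 had differences of -0.03, -0.01, 0.04 and -0.03, with 95% intervals between -0.19 and 0.22.

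The 6 RPT genes, which encode the ring of ATPases that unfolds substrates, had differences below 0 at 30 min, and limma called 0 of them at every time point. At 30 min 1 had an unadjusted p under 0.05, and edgeR and DESeq2 called 0. The highest was RPT5, at -0.01 (SE 0.08, limma adjusted p 0.962), with 1613, 1761, 1511 and 1757 normalised reads in SSDDCS, against 1544, 1708, 1576 and 1844 in sml1Δ. The lowest was RPT4, at -0.18 (SE 0.09, limma adjusted p 0.0896), with 1992, 2341, 2076 and 2282 in SSDDCS, against 2067, 2618, 2529 and 2641 in sml1Δ. The libraries of both genes overlapped, for RPT4 through the low value of sml1Δ replicate 1. RPT4 was called at 25 and 30 min when that replicate was left out. RPT1, RPT2, RPT3 and RPT6 had differences of -0.08, -0.13, -0.01 and -0.03.

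At 30 min the RPN genes had the widest range of differences of the 4 subunit classes. RPN12, a lid subunit, was the highest at 30 min at 0.16 (SE 0.09, limma adjusted p 0.133), with 1243, 1379, 1226 and 1355 normalised reads in SSDDCS, against 1073, 1252, 1175 and 1171 in sml1Δ. RPN8 (YOR261C), the lid partner of the deubiquitinase Rpn11, was the lowest at -0.26 (SE 0.09, limma adjusted p 0.00949), with 1225, 1371, 1244 and 1366 in SSDDCS, against 1314, 1760, 1617 and 1578 in sml1Δ. The RPN8 libraries overlapped through sml1Δ replicate 1 alone. Its call was lost in edgeR (adjusted p 0.0142), with equal library totals, with quantile normalization, with a correlation within cultures, and without sml1Δ replicate 2, 3 or 4 or SSDDCS replicate 1, 2 or 3. The RPN8 difference was -0.2 at 20 min and -0.25 at 25 min without a call. RPN8 was called at both times when sml1Δ replicate 1 was left out.

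RPN10 (YHR200W, chrVIII:499079-499885, plus strand) encodes a receptor that binds ubiquitin chains and was the gene called at the most time points. With all libraries as deposited, it was also the only one of the 30 with a strain-by-time call. At 30 min it had 1534, 1619, 1423 and 1495 normalised reads in SSDDCS, against 1739, 1781, 1704 and 1968 in sml1Δ, differing by -0.24 (limma, SE 0.06, adjusted p 0.00147). At 35 min it had 1433, 1490, 1294 and 1433 in SSDDCS, against 1707, 1718, 1512 and 1851 in sml1Δ, differing by -0.26 (limma, SE 0.06, adjusted p 0.000721). At 40 min it had 1386, 1321, 1317 and 1428 in SSDDCS, against 1606, 1639, 1721 and 1716 in sml1Δ, differing by -0.29 (limma, SE 0.06, adjusted p 0.000211). All SSDDCS libraries lay below all of sml1Δ at each of these 3 times. The strains did not overlap, in either direction, for 36.9%, 34.4% and 27.3% of all genes.

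The RPN10 course differed in shape between the strains. Its mean was highest at 10 min and lowest at 40 min in SSDDCS, whereas in sml1Δ it was highest at 30 min and lowest in G1. The strain-by-time F-test gave an adjusted p of 0.00465 for RPN10 in limma. That call was lost with equal library totals (adjusted p 0.0609), with quantile normalization (0.0428) and without any one of sml1Δ replicates 2, 3 and 4 and SSDDCS replicates 1, 2, 3 and 4 (adjusted p between 0.0159 and 0.059), whereas without sml1Δ replicate 1 there were 4 genes called. The call at 40 min was kept with each replicate left out and in edgeR and DESeq2. Those at 30 and 35 min were lost without sml1Δ replicate 4 (adjusted p 0.0216 and 0.013) or SSDDCS replicate 3 (0.013 and 0.011), and that at 35 min also with quantile normalization (0.0129).

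Of the other RPN genes, RPN6, a lid subunit that braces cap and core, had differences of -0.27 at 25 min (SE 0.1, limma adjusted p 0.0284) and -0.22 at 30 min (SE 0.09, limma adjusted p 0.0295), and was called lower at both times when sml1Δ replicate 1 was left out. RPN1 and RPN2, the large scaffold subunits of the base, had differences at 30 min of 0.12 and 0.1. RPN3, RPN5, RPN7 and RPN9 of the lid had -0.07, 0.05, -0.01 and -0.0027 at 30 min. Of these 4, RPN9 was called at 20 and 25 min when sml1Δ replicate 1 was left out.

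**Figure D4:**
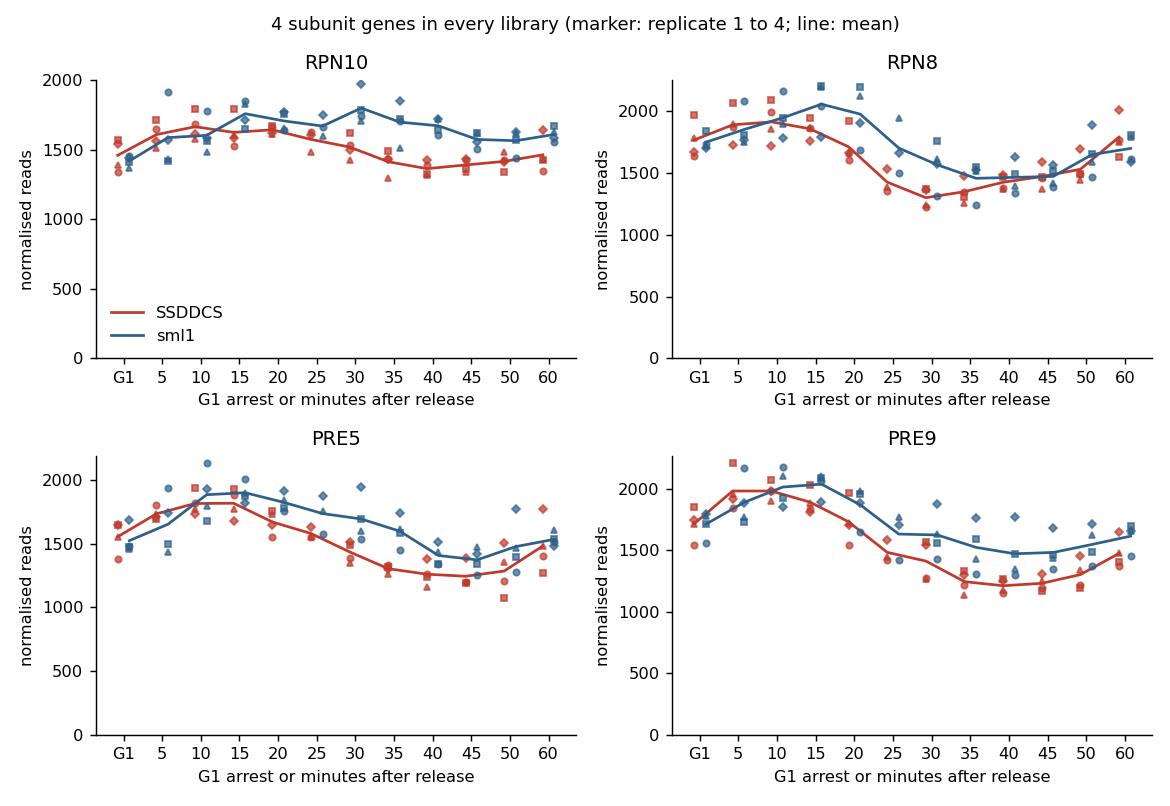
Normalised reads of RPN10, RPN8, PRE5 and PRE9 in every library (axes starting at 0) over G1 and 11 times after release, SSDDCS in red to the left of sml1Δ in blue, with markers for replicates 1 to 4 and lines for means. The SSDDCS means lie below those of sml1Δ from 20 to 50 min, and for RPN10 the gap is widest at 40 min, at -0.29 on the log2 scale.

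Of the 4 subunit genes outside the chosen rows, RPN11, which encodes the deubiquitinase of the lid, was called lower in SSDDCS at 25, 30, 35 and 40 min. At these times 21.6%, 31.3%, 27.5% and 19.8% of all genes were called in either direction. At 30 min RPN11 had 1228 ± 39.9 normalised reads in SSDDCS and 1492 ± 197 in sml1Δ (SD over 4 libraries), differing by -0.27 (limma, SE 0.08, adjusted p 0.00273). PRE3, the caspase-like subunit, RPN13, a ubiquitin receptor, and SEM1 had differences at 30 min of -0.08, -0.18 and -0.12 and were not called then.

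Genes that assemble, attach to or supply the proteasome included larger differences than those of the subunits. Of 9 assembly chaperones, 1 was called higher and 2 lower at 30 min. IRC25 and POC4, which encode a pair that helps to build the alpha ring, fell by 0.5 (SE 0.09, limma adjusted p 3.51e-06) and fell by 0.52 (SE 0.12, limma adjusted p 0.000181). RPN14, a chaperone of the ATPase base, was higher by 0.26 (SE 0.08, limma adjusted p 0.00826). The backgrounds at 30 min were 17% of genes called higher and 14.3% lower in SSDDCS.

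Of 11 associated factors, 5 were called higher (background 17%) and 2 lower (background 14.3%) in SSDDCS at 30 min. ECM29, whose product tethers the core to the cap, had 1425 ± 168 normalised reads in SSDDCS against 571 ± 84.2 in sml1Δ (SD over 4 libraries), differing by 1.32 (limma, SE 0.17, adjusted p 8.12e-10), and it was called from 20 to 45 min. BLM10, an alternative activator of the core, was higher by 0.47, UBP6, a deubiquitinase of the cap, by 0.41, SPG5, a regulator known from stationary phase, by 0.75 and TMC1 by 0.9, with limma adjusted p between 1.05e-06 and 0.00797. STS1, needed to localise proteasomes to the nucleus, fell by 0.38 (SE 0.08, limma adjusted p 0.000134) and RAD23, a shuttle for ubiquitinated substrates, fell by 0.29 (SE 0.09, limma adjusted p 0.00869). HUL5, CUZ1, DSK2 and DDI1 did not pass at 30 min.

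Of 6 genes of ubiquitin supply and of the Cdc48 segregase, which extracts ubiquitinated proteins, 4 were called higher at 30 min (background 17%). UBI4, the stress-inducible polyubiquitin gene, had 5819 ± 705 normalised reads in SSDDCS against 3312 ± 516 in sml1Δ (SD over 4 libraries), differing by 0.82 (limma, SE 0.2, adjusted p 0.000535). DOA4, which recycles ubiquitin, was higher by 0.46, CDC48 by 0.37 and its cofactor NPL4 by 0.34, with limma adjusted p between 0.000321 and 0.00337. UBA1 and UFD1 had differences of -0.04 and -0.23 and did not pass. Each of the chaperone, associated factor and ubiquitin lists held genes with differences larger than that of any of the 29 subunits, whose largest at any time point was 0.294 in size.

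Members with and without the full PACE letters were set side by side after their values had been seen. Both genes called at 30 min, RPN8 and RPN10, lacked the full element, and so did PRE5, whereas PRE9 held it. The median difference at 30 min was -0.01 for the 25 genes with PACE and -0.23 for the 5 without it (RPN4, RPN8, RPN10, PRE5 and PUP1), which range from -0.26 to 0.25. Outside the 30 genes, 46 tested genes held PACE, with a median difference of 0.01, and 13 of them were called higher and 4 lower at 30 min, against 17% and 14.3% of all genes. These numbers are a description, and no test was run on them.

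The position of the genes relative to replication origins, the sites where DNA synthesis starts, was also examined after the values were seen. The 30 genes lie on 11 chromosomes, between 0.8 kb (PUP2) and 36.7 kb (PRE10) from the nearest of 352 annotated origins. At 25 min the difference between strains was lower for genes farther from an origin, with a Pearson correlation of -0.63 and a Spearman correlation of -0.62 over the 30 genes. The median difference was 0.06 for the 14 genes under 10 kb, -0.11 for the 8 at 10 to 20 kb and -0.13 for the 8 beyond 20 kb. Over all 5807 placed genes the corresponding medians were 0.09, -0.06 and -0.17, with a Pearson correlation of -0.16 and a Spearman correlation of -0.3, and thus the same order of the 3 classes.

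The relation to distance was strongest from 20 to 30 min. Over the 30 genes the Pearson correlation was -0.06 in G1 and -0.24 at 5 min. It was -0.4 at 20 min and -0.43 at 30 min, and by 35 and 60 min it was -0.14 and -0.001. RPN6, RPT4 and RPN8, which lie 29.5, 29.6 and 33 kb from an origin, had the lowest differences at 25 min, and PRE7, PUP2 and RPN12, which lie 2.1, 0.8 and 3.4 kb away, had the highest among the subunits. RPN10 and PRE5 stood against this order, since they lie 2.4 and 4.1 kb from an origin and were lower in SSDDCS. Neighbouring genes such as RPT4 and RPN8 share an origin, all genes share the same libraries, and no cause was tested.

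**Figure D5:**
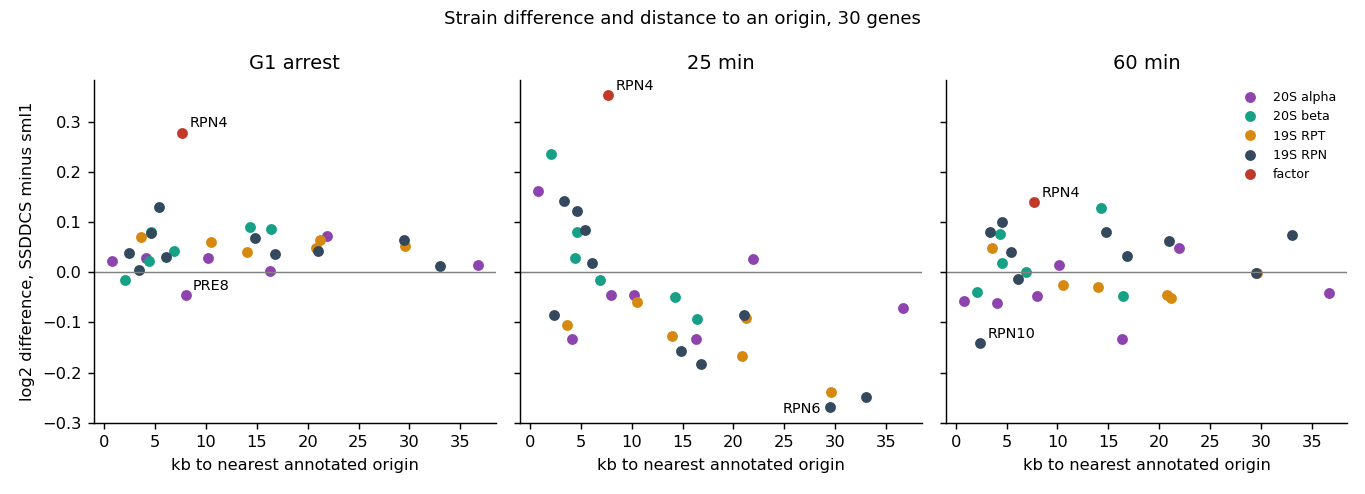
Strain difference (log2, SSDDCS minus sml1Δ) of the 30 genes against distance to the nearest annotated origin (kb), in G1, at 25 min and at 60 min, coloured by role, with the highest and lowest gene named. The points slope downward at 25 min (Pearson correlation -0.63) and show no slope at 60 min (-0.001).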

How the data were processed

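Per the labels and the study's methods, the authors mapped reads to the yeast reference with bowtie2 (the labels name TopHat2, version 2.0.6, cutadapt and the sacCer3 build), counted reads per gene and deposited a signal value, the read count divided by a DESeq2 size factor. Whole reads could be recovered from 100% of these values, within 0.0001 reads. How reads mapping to several places were counted is not given in the sources used here, and the kit is named differently in the labels and the methods, so no use of strand is assumed. None of the 30 genes overlaps another annotated gene, but 19 of them lie within 300 bases of one. RPN10 lies 64 bases from PPX1, which is on the opposite strand. The part of reads from neighbouring genes in these values was not tested. Of 96 columns, 94 matched a sample, and 2 columns named for 25 min were not used. The 138 replicate pairs all differed beyond sampling noise.

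The test covered 6414 genes whose mean over the libraries reached 10, all 30 proteasome genes among them, and 30 other genes fell below it. Values were transformed as log2(value + 1), and limma (version 3.58.1, R 4.3.3, trend option) estimated 24 strain-by-time means from 94 libraries. This fit treated the 94 libraries as independent, although a culture was sampled repeatedly over time. The consensus correlation within cultures was 0.38. Tests were two-sided and adjusted by Benjamini-Hochberg over all tested genes in each contrast, with calls at an adjusted p under 0.01. Fold changes on this scale slightly understate changes of low genes. Alternatives were equal library totals, quantile normalization, a pseudocount of 0.1 or 5, testing every gene, a replicate block, a correlation within cultures, edgeR (version 4.0.16) and DESeq2 (version 1.42.0) on recovered reads, each time point alone and each replicate left out. Added after seeing the data were a block by culture and leaving out replicate 1 of both strains. The latter called RPN6, RPN8 and RPN10 lower at 30 min and did not call RPN4 at 20 or 25 min. Named outside the members were genes called at 30 min or at 3 or more time points, and values in every library were given for RPN4, for the highest and lowest gene of each class at 30 min and for called genes. The members and lists were chosen with earlier results of these data known. Sequences and positions came from the RefSeq R64 assembly.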

Additional observations from a re-analysis of the deposited data

Results flagged for a closer look

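Among 48 groups of 4 libraries of the genes given library by library, 1 held a sample far from the others. PRE7 at 30 min had 2137 normalised reads in sml1Δ replicate 4, against 1782 to 1838 in the other sml1Δ libraries, so its gap was 0.843 of the range of the group. Chance alone places about 1 group in 20 beyond this limit. RPN10 was the one gene of the 30 whose strain difference departed from its G1 value in the limma F-test (adjusted p 0.00465, with lower values in 4 of 4 SSDDCS libraries than in any sml1Δ library at 30, 35 and 40 min).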

How the results depend on the processing

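No difference of RPN4, RPN8, RPN10, PRE5 or PRE9 at the times recomputed changed sign, whereas the median over the 30 genes at 30 min, -0.02 as deposited, was 0.03 with equal library totals, 0.04 with quantile normalization, 0.03 without sml1Δ replicate 4 and 0.01 without SSDDCS replicate 3. That median was -0.07 without sml1Δ replicate 1. Pseudocounts of 0.1 and 5, no filter and DESeq2 gave the same counts. At 30 min, the count of 2 called genes was 4 with the replicate block, 1 with the correlation within cultures, 1 with edgeR, 0 with the time point alone and between 0 and 6 with each replicate left out. The count of 5 genes called at 1 or more time points was 3 with equal library totals, 2 with quantile normalization, 2 with the correlation within cultures, 0 with each time point alone and between 1 and 8 with each replicate left out. The 1 gene with a strain-by-time call became 0 with equal library totals and with quantile normalization, and between 0 and 4 with each replicate left out. RPN4 at 30 min was called with equal library totals (0.303), with quantile normalization (0.325) and with the replicate block (0.254), which also called PRE9 at 40 and 45 min. The RPN4 difference at 30 min ran from 0.176 to 0.352 with each replicate left out. The cause of these changes was not tested. The fits to single time points and with a replicate left out also held fewer libraries. Libraries with the same replicate number in both strains deviated together in 38 of 47 pairs (correlation over 0.1, lowest -0.36), and 36 SSDDCS libraries correlated best with their own number. The smallest difference called among the 30 genes was 0.244 in size. At 30 min calls that were higher made up 54.3% of all calls as deposited, 65.1% with equal library totals and 43.7% with quantile normalization. Of 380 further values under an alternative, 283 kept their side of the threshold or a similar count of calls, 85 lost a call or had fewer and 12 gained one or had more. Counts equal or close to the one reported were taken as kept, and at several time points that count was 0.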
